A study of Mus musculus with 32 samples.

Results

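The 67 genes described here encode the ligands and receptors of the 4 classical systems of axon guidance: ephrins and their Eph receptors, semaphorins with plexins and neuropilins, Slits with their Robo receptors, and netrins with Dcc and the Unc5 receptors. They were chosen by symbol, by a rule that used no measured values, though earlier results of these data were known. The rule took the genes of these families that are the single symbol of a probe set on the array. They are 67 of 19938 genes measured in this way and are read by 72 of 35556 probe sets. By family they comprise 9 EphA receptors, 4 EphB receptors, 8 ephrins, 20 semaphorins, 11 plexins and neuropilins, 7 Slit and Robo genes, and 8 genes of netrins, Dcc and Unc5.

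Axon guidance molecules steer the growing tip of an axon by attraction or repulsion. Ephrins are bound to the cell membrane and signal in both directions on contact with Eph receptor tyrosine kinases, semaphorins collapse growth cones through plexins (the secreted class 3 members with neuropilin as co-receptor), Slits repel through Robo, and netrins attract through Dcc and repel through Unc5. In the cerebellum these systems guide the migration of granule cells and the growth of their parallel fibers, while in blood several class 4 semaphorins and some plexins act between immune cells.

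The study profiled peripheral blood and cerebellum of the same mice on Affymetrix Mouse Gene 1.0 ST arrays, in 2 mouse models of single-gene disorders associated with autism. In the Fmr1 experiment, 5 Fmr1-knockout (KO) mice, a model of fragile X syndrome, were compared with 5 wild-type (WT) mice, all C57BL/6 congenic. In the Tsc2 experiment, 3 Tsc2+/- mice, a model of tuberous sclerosis, were compared with 3 WT mice, all on a mixed 129/SvJae-C57BL/6J background. Each mouse gave 1 blood and 1 cerebellum array, 32 arrays in all. The Tsc2+/- mice carried 1 inactivated allele, because loss of both is lethal to the embryo, and all mice were killed at 8 to 10 weeks of age. Strain and experiment cannot be told apart. The labels call all mice female, whereas the methods describe males. Xist read between 17.28 and 62.55 on the blood arrays and between 44.54 and 105.7 on the cerebellum arrays. These values lie under the lowest background of each tissue, 165 and 138, as defined below. The Y-linked genes Eif2s3y (226.4 to 875 in blood), Kdm5d (264.8 to 851.8) and Uty (560 to 1452) were read on every array, with Uty at 337.2 to 584.3 in cerebellum. Such readings are those of males, as in the methods, and not of the sex in the labels.

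All values are signal intensities on a linear scale unless a log2 difference is named, and levels of different genes are not compared. The background of an array was taken as the 95th percentile of 1023 olfactory receptor probe sets, which lay between 165 and 279.3 in blood and between 138 and 272 on 15 of the 16 cerebellum arrays. The cerebellum array of Fmr1-KO mouse 1 stood apart with a background of 577.9. Fmr1 itself was lower in both tissues of the Fmr1-KO mice, at 221 ± 43.0 (SD, n = 5) against 549 ± 130 in blood and 261 ± 67.2 against 858 ± 36.4 in cerebellum, with no overlap (exact permutation p = 0.00794 in both tissues, which is as small as 5 against 5 mice allow). Tsc2 in the Tsc2+/- mice was 724 ± 145 against 826 ± 158 in blood, where the groups overlapped (exact permutation p = 0.5, n = 3 each), and 822 ± 155 against 1137 ± 34.8 in cerebellum, where they did not (exact permutation p = 0.1, as small as 3 against 3 mice allow). The blood of the Tsc2 experiment differed from that of the Fmr1 experiment in its cell markers. The summed intensity of 8 platelet genes was 141185 to 194857 on the Fmr1 arrays, and 96243, 5577 and 116834 in the Tsc2+/- and 150344, 82508 and 3517 in their WT mice, so that Tsc2+/- mouse 2 and WT mouse 3 of that experiment lay near the cerebellum arrays (1462 to 2463). For several genes the value without those 2 blood arrays is given beside the main one. Of the cerebellar markers, 12 of 12 granule cell, 8 of 10 Purkinje cell, 12 of 12 Bergmann glia and astrocyte and 11 of 11 oligodendrocyte genes were higher in cerebellum in both experiments, and 11 of 11 T cell and 11 of 11 B cell genes were higher in blood.

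Most of the guidance genes were higher in cerebellum than in blood, and a small set of semaphorins with 1 plexin was higher in blood. In the Fmr1 experiment 64 of the 67 genes differed between the tissues at an adjusted p under 0.05 (limma, Benjamini-Hochberg over all probe sets), 59 higher and 5 lower in cerebellum. Of all probe sets 71.8% differed, 51.8% higher and 20% lower, so a tissue difference as such is common on these arrays. In the Tsc2 experiment 59 of the 67 genes differed, 53 higher and 6 lower, against 57.4% of all probe sets, 31% higher and 26.4% lower. For the Fmr1 and Tsc2 experiments the median log2 difference of the 67 genes was 2.38 and 1.91, and that of all probe sets was 0.52 and 0.03. With each array centred on its median, the respective splits became 48 higher and 9 lower, and 50 higher and 8 lower. In both experiments 52 genes were higher and 4 were lower in cerebellum, and 11 did not pass in both. Across the 67 genes, which are not independent replicates, the log2 differences of the experiments had r = 0.896 and rho = 0.914. In a whole tissue, fewer cells of a type and less RNA per cell cannot be told apart.

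**Figure D1:**
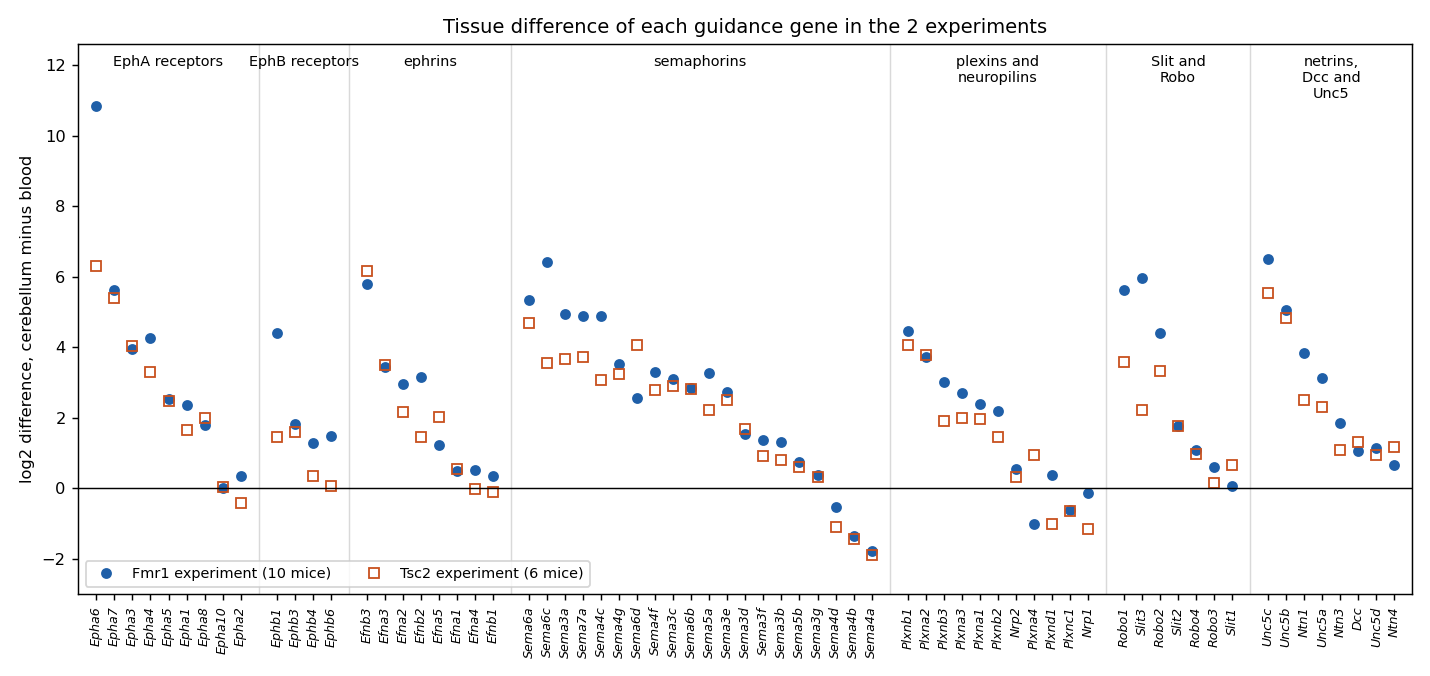
Log2 difference of intensity (cerebellum minus blood, vertical axis) of each of the 67 guidance genes, grouped by family along the horizontal axis. Filled circles are the Fmr1 experiment (10 mice) and open squares the Tsc2 experiment (6 mice). Most genes lie above 0 in both, and Sema4a, Sema4b, Sema4d and Plxnc1 lie below 0 in both.

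Many of these differences rest on blood values below background. In blood 38 of the 67 genes did not exceed the background on any array and 6 exceeded it on all 16 arrays (Ntn4, Plxna4, Plxnc1, Sema4a, Sema4b and Sema4d). In cerebellum 41 exceeded it on all 15 arrays other than that of Fmr1-KO mouse 1, and Robo3 exceeded it on none. These counts were not made over all probe sets, so they are not read as a feature of the guidance genes. The median intensity of all probe sets was 134.2 to 185.6 on the blood arrays. Of the 67 genes' blood values, 9.235% were under 16, where the log2 scale exaggerates differences. For a gene not above background in blood, the fold is therefore given as a lower bound, the mean log2 level in cerebellum against the mean log2 background of the blood arrays. An adjusted p printed beside such a bound tests the log2 difference of the measured values, and the bound itself was not tested. The bound exceeded 1-fold for 25 (Fmr1 experiment) and 32 (Tsc2 experiment) of the 38 genes, and 4-fold for 3 and 6. It is a lower bound only where the gene also exceeded the background in cerebellum. Some of the counted genes seldom did, such as Slit1 (4 of 16 cerebellum arrays), Sema3c (5), Dcc (5) and Epha5 (6).

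The repulsive netrin receptors Unc5c and Unc5b and the transmembrane ligand ephrin-B3 were read well above background in cerebellum and below it in blood. Unc5c read 977 to 1320 (median 1200) in the cerebellum of the 10 Fmr1-experiment mice and 1059 to 1400 (median 1192) in that of the 6 Tsc2-experiment mice, against at most 71.7 and 57.6 in their blood. It was at least 5.64-fold and at least 6.62-fold higher in cerebellum (limma adjusted p = 2.00e-05 and 6.93e-07). Unc5b read 705 to 1063 (median 934) and 861 to 1051 (median 986) in cerebellum, and 18.5 to 57.6 and 20.4 to 50.1 in blood, at least 4.43-fold and at least 5.33-fold higher (adjusted p = 3.80e-15 and 3.84e-09). The secreted ligand netrin-1 (Ntn1) read 423 to 787 in cerebellum and 16.3 to 115 in blood of the Fmr1 experiment, and 613 to 717 and 53.6 to 349 in the Tsc2 experiment, with log2 differences of 3.84 and 2.50. All 8 genes of netrins, Dcc and Unc5 were higher in cerebellum in both experiments, with median log2 differences of 2.48 and 1.81. Dcc, the attractive netrin receptor, read 154 to 221 and 163 to 229 in cerebellum, exceeding the background on 5 of 16 arrays. Its cerebellum level did not clear the blood background in the Fmr1-experiment mice. In the Tsc2-experiment mice it stood 1.06-fold over the blood background, which is not a lower bound, since most cerebellum arrays read Dcc below background.

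Ephrin-B3 (Efnb3), a ligand of EphB receptors and of EphA4, read 674 to 1148 (median 859) in Fmr1-experiment cerebellum and 845 to 1639 (median 1046) in Tsc2-experiment cerebellum. In blood it read 2.96 to 83.8 and 2.66 to 42.5. It was at least 4.29-fold and at least 6.15-fold higher in cerebellum (adjusted p = 8.45e-11 and 1.57e-06). Of the GPI-anchored A ephrins, Efna3 read 328 to 782 and 317 to 627 in cerebellum against at most 66.6 and 50.1 in blood (at least 1.98-fold and 2.48-fold), and Efna2 read 220 to 473 and 232 to 340 against at most 114 and 106 (at least 1.39-fold and 1.53-fold). Of the 8 ephrins, 8 and 6 passed as higher in the respective experiments. Efnb1 and Efna4 were the exceptions, with log2 differences of 0.33 and 0.51 in the Fmr1 experiment, where both passed, and -0.12 and -0.02 in the Tsc2 experiment, where neither did.

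Among the Eph receptors, which are receptor tyrosine kinases, Epha7 read 275 to 485 (median 451) and 448 to 606 (median 512) in cerebellum and at most 17 and 22 in blood, at least 2.05-fold and 2.81-fold higher (adjusted p = 7.37e-14 and 3.35e-08). Epha3 read 305 to 419 and 358 to 478 in cerebellum and at most 48.6 and 32.6 in blood, at least 1.80-fold and at least 2.24-fold higher. Epha6 showed how far the scale matters at low intensity. It read 133 to 226 and 225 to 393 in cerebellum, and its blood values ran from 0.00142 to 15.5 and from 0.767 to 11.9. Its log2 differences of 10.84 and 6.30 became 3.44 and 3.85 with 16 added to each value. The cerebellum level of Epha6 did not clear the blood background in the Fmr1 experiment and was 1.54-fold over it in the Tsc2 experiment. Epha6 exceeded the background on 10 of 16 cerebellum arrays. Of the 9 EphA receptors, 8 passed as higher in the Fmr1 experiment, and 7 as higher and 1, Epha2, as lower in the Tsc2 experiment. Epha10 did not pass in either experiment by the brighter of its probe sets, which was the one used (log2 differences 0.01 and 0.02). Its other, dimmer probe set passed as higher in both (0.57 and 0.45, limma adjusted p = 0.00105 and 0.00488), so that its call depends on the probe set.

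Among the EphB receptors, Ephb1 read 210 to 353 and 147 to 302 in cerebellum and at most 80.1 and 104 in blood, at least 1.29-fold and at least 1.20-fold higher. Its other, dimmer probe set had log2 differences of 6.47 and 5.77, against 4.41 and 1.47 for the one used, so the size depends on the probe set. Ephb4, known from vein development, read 248 to 410 against 45.6 to 191 in Fmr1-experiment mice and 212 to 277 against 162 to 243 in Tsc2-experiment mice (log2 differences 1.28 and 0.34, the latter 0.46 without the blood arrays of Tsc2+/- mouse 2 and WT mouse 3). Ephb3 read 128 to 213 and 135 to 185 in cerebellum and at most 87.5 and 71.9 in blood, under or near the background in both tissues, so no fold is given for it. All 4 passed as higher in the first experiment and 3 in the second, with medians of 1.65 and 0.90.

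For the Slit and Robo system, Robo1 read 370 to 574 and 468 to 669 in cerebellum against at most 66.2 and 230 in blood, with log2 differences of 5.62 and 3.57 (3.78 and 3.03 with 16 added). Robo2 read 252 to 458 and 366 to 452 in cerebellum and at most 49.5 and 81.5 in blood, at least 1.77-fold and at least 2.23-fold higher. Slit3, a secreted ligand of the Robo receptors, read 303 to 478 and 316 to 423 in cerebellum, and 0.00797 to 159 and 18.7 to 221 in blood. Without the blood arrays of Tsc2+/- mouse 2 and WT mouse 3, the log2 difference of the Tsc2-experiment mice went from 3.57 to 4.34 for Robo1 and from 2.23 to 2.80 for Slit3. Of the 7 genes 6 passed as higher in each experiment. Slit1 did not pass in the Fmr1 experiment (log2 difference 0.07) and Robo3 did not in the Tsc2 experiment (0.15).

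Among the plexins, which are the signaling receptors of semaphorins, Plxnb1, a receptor of Sema4d, read 579 to 769 and 748 to 817 in cerebellum and at most 181 and 148 in blood (at least 3.29-fold and 4.29-fold higher, adjusted p = 4.11e-05 and 6.50e-06). Plxna2 read 559 to 861 and 702 to 847 in cerebellum and at most 78.8 and 66 in blood (at least 3.20-fold and 4.21-fold higher). Plxnb3 read 300 to 441 and 350 to 483 in cerebellum and at most 140 and 130 in blood (at least 1.64-fold and 2.15-fold). Its lowest blood value was 0.0139, and its log2 difference in the Fmr1-experiment mice was 3.02 (1.88 with 16 added). It no longer passed without the cerebellum array of Fmr1-KO mouse 1 (2.97, limma adjusted p = 0.0513). Of the 11 plexins and neuropilins, 8 passed as higher and 2 as lower in the Fmr1 experiment. The counts were 6 and 2 in the Tsc2 experiment. Plxnc1 was lower in both. Plxna4 was lower in Fmr1-experiment mice alone and Nrp1 in Tsc2-experiment mice alone.

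Of the 20 semaphorins 17 were higher and 3 lower in cerebellum in each experiment. Sema6a, a ligand of A-type plexins in the migration of granule cells, read 606 to 823 and 688 to 900 in cerebellum and at most 157 and 60.4 in blood (at least 3.42-fold and 4.52-fold higher, adjusted p = 3.53e-07 and 4.56e-07). Sema6c read 344 to 499 and 331 to 480 in cerebellum and at most 67.4 and 122 in blood (at least 2.06-fold and 2.28-fold). Sema3a, the secreted repellent that acts through Nrp1 and A-type plexins, read 253 to 394 and 249 to 333 in cerebellum and at most 26.6 and 39.2 in blood (at least 1.54-fold and 1.64-fold). The membrane-anchored Sema7a read 2921 to 4457 and 3755 to 4660 in cerebellum, against 90 to 191 and 171 to 820 in blood, with log2 differences of 4.87 and 3.71.

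The 4 genes that were higher in blood in both experiments were the class 4 semaphorins Sema4a, Sema4b and Sema4d and the receptor Plxnc1. The direction was not shared by the class. Sema4c, Sema4f and Sema4g were higher in cerebellum in both experiments (log2 differences 4.90 and 3.08, 3.30 and 2.78, and 3.51 and 3.25). Sema4a, known to act on T cells, read 541 to 1118 (median 761) in blood and 161 to 306 (median 219) in cerebellum of the Fmr1 experiment. In the Tsc2 experiment it read 713 to 1454 (median 1169) in blood and 238 to 363 (median 296) in cerebellum. No cerebellum value reached a blood value in either experiment, and the log2 differences were -1.78 (SE 0.12) and -1.88 (SE 0.18), with adjusted p = 1.06e-10 and 3.52e-06. Sema4b read 526 to 759 in blood and 186 to 326 in cerebellum of the Fmr1 experiment, and 606 to 919 and 258 to 315 in the Tsc2 experiment. Its log2 differences were -1.35 (SE 0.09) and -1.44 (SE 0.11). Plxnc1, the receptor of Sema7a, read 380 to 615 in blood and 286 to 421 in cerebellum of the Fmr1 experiment, where the tissues overlapped, and 519 to 753 and 359 to 426 in the Tsc2 experiment, where they did not. Its log2 differences were -0.62 and -0.65. Sema4d (CD100), which is carried by T cells and acts on B cells, read 791 to 1172 in blood and 575 to 886 in cerebellum of the Fmr1 experiment and 1332 to 1981 and 687 to 839 in the Tsc2 experiment, with log2 differences of -0.53 and -1.10. Sema4d has a second, dimmer probe set that went the other way, with log2 differences of 1.31 and 1.40, so that the mean of both probe sets was 0.39 and 0.15. The direction of Sema4d thus depends on the probe set, whereas Sema4a, Sema4b and Plxnc1 each have 1 probe set.

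**Figure D2:**
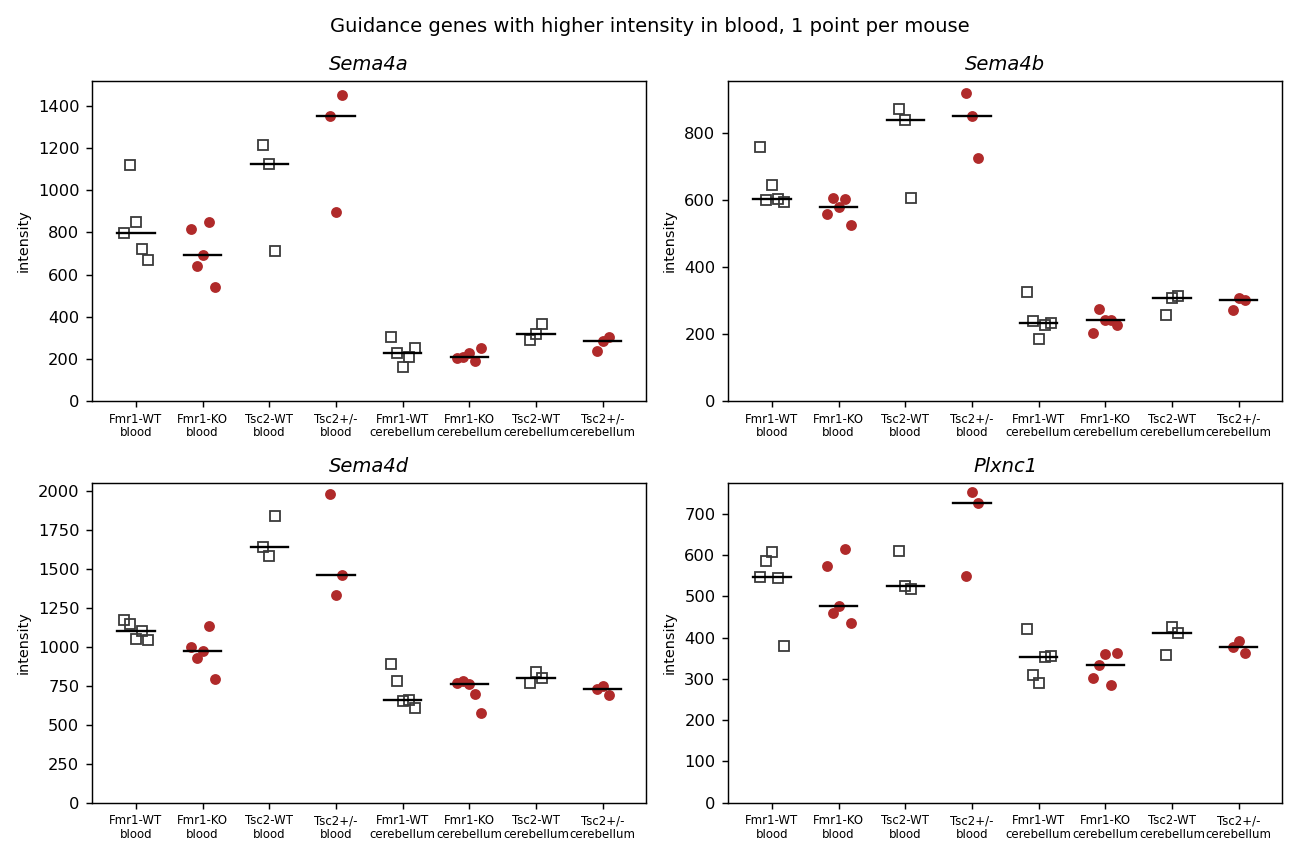
Intensity (linear axis from 0) of Sema4a, Sema4b, Sema4d and Plxnc1 in each mouse, by experiment, genotype and tissue. Filled circles are Fmr1-KO or Tsc2+/- mice, open squares WT mice and lines group medians. Blood values lie above cerebellum values for Sema4a and Sema4b in every group, and the Fmr1 blood values of Sema4d (791 to 1172) lie below those of the Tsc2 experiment (1332 to 1981).

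The promoters of these 4 genes, and of Unc5c and Epha7 for contrast, are given as the 250 bases before a RefSeq start (GRCm38.p6), 5′ to 3′ on the gene's strand. They are shown because the 4 genes are the guidance genes higher in blood in both experiments. Capitals mark GAGGAA on either strand (as TTCCTC on the other), the core letters of sites of the myeloid and lymphoid factor PU.1.
Sema4a, chr3:88461183-88461432, minus strand: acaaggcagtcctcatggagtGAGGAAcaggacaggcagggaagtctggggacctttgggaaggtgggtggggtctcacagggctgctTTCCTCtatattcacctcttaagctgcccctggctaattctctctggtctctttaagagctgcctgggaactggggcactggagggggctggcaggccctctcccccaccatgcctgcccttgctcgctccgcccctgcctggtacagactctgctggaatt
Sema4b, chr7:80186620-80186869, plus strand: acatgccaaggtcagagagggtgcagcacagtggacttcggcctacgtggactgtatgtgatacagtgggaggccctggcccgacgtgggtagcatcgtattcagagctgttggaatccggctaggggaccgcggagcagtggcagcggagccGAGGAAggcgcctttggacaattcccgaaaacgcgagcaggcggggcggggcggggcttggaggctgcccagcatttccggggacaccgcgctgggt
Sema4d, chr13:51748811-51749060, minus strand: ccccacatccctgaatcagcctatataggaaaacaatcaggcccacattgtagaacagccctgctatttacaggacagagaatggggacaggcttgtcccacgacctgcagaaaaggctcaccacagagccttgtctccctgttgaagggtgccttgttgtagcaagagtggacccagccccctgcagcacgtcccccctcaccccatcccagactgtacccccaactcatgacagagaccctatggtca
Plxnc1, chr10:94944846-94945095, minus strand: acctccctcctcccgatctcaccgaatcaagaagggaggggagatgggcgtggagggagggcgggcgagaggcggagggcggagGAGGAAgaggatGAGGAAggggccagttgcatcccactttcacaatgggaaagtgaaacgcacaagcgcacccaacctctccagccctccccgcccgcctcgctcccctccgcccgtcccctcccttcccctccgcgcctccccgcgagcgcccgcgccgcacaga
Unc5c, chr3:141465314-141465563, plus strand: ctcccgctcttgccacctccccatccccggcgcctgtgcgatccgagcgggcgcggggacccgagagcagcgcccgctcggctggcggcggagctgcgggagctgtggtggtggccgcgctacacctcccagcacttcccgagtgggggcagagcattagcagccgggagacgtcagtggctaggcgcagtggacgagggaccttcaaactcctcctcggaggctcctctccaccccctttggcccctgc
Epha7, chr4:28812881-28813130, plus strand: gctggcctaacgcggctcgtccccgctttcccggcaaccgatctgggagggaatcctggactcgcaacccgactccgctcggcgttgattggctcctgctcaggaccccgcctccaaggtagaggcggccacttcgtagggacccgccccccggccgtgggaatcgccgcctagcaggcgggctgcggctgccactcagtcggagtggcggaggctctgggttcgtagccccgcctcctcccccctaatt
GAGGAA occurred 2 times for Sema4a, 1 time for Sema4b, 2 times for Plxnc1 and 0 times for Sema4d, Unc5c and Epha7. It occurred in 23.3% of all 32851 promoters of this length and in 20 of the 73 promoters (27.4%) listed for 57 of the 67 guidance genes. The GC-box letters GGGCGG, also searched on both strands, occurred in 53 of those 73 promoters (72.6%) against 32.7% of all. CG dinucleotides numbered 2 for Sema4a and 2 for Sema4d, against 20 for Sema4b, 22 for Plxnc1, 23 for Unc5c and 25 for Epha7 and a median of 6 over all promoters. Sema4a has 4, Sema4d 3, Sema4b 2 and Epha7 2 RefSeq starts and 1 of each is shown, so the letters describe that window alone.

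The difference between the tissues was itself compared between the experiments (Tsc2 minus Fmr1, limma). It passed for 21 of the 67 genes, 5 higher and 16 lower, against 33.5% of all probe sets, and its median over the 67 genes was -0.45 against -0.44 over all probe sets. With the arrays centred on their medians the count was 8 (6 higher, 2 lower) and it was 13 after quantile normalization, 6 higher and 7 lower. Of the 67 genes, 6 passed in the fit and in each alternative run. The same count was not made over all probe sets, so these 6 are described as single genes and not as a feature of the guidance genes.

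Plxna4, the receptor of Sema3a and Sema6a, read 1680 to 2513 on the 10 blood arrays of the Fmr1 experiment. In the Tsc2 experiment it read 1049, 240 and 1310 in Tsc2+/- blood and 1894, 736 and 196 in WT blood. The 2 lowest values were those of the mice whose blood held the lowest platelet sums. In cerebellum it read 821 to 1276 and 1136 to 1400, so that its tissue difference was -1.02 in Fmr1-experiment mice and 0.95, not passing, in Tsc2-experiment mice (difference 1.97, SE 0.43, adjusted p = 0.00117). Sema6d, a ligand of Plxna1, read 178 to 422 in blood of the Fmr1 experiment, and 139, 53.1 and 183 in Tsc2+/- and 282, 87.7 and 56.8 in WT blood of the Tsc2 experiment (difference 1.52, SE 0.35, adjusted p = 0.00166). Ntn4, a netrin of basement membranes, read 394 to 499 in Fmr1-experiment blood and 276 to 366 in Tsc2-experiment blood, with no overlap (difference 0.51, SE 0.12, adjusted p = 0.00247). Efna5, a repellent ligand of EphA receptors, read 78.2 to 151 and 67.2 to 124 in blood, where the experiments overlapped and no value was above background (difference 0.79, SE 0.20, adjusted p = 0.00323).

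The other 2 of these 6 genes went the opposite way. Epha2 read 191 to 271 in blood of the Fmr1 experiment, and 299, 527 and 305 in Tsc2+/- and 243, 280 and 336 in WT blood (difference -0.77, SE 0.15, adjusted p = 0.000399). Ephb6, a kinase-inactive Eph receptor known from T cells, read 60.7 to 141 in blood of the Fmr1 experiment, and 198, 245 and 167 in Tsc2+/- and 146, 216 and 948 in WT blood (difference -1.41, SE 0.35, adjusted p = 0.00315). Its blood values in the Fmr1 experiment were all below background. The value of 948 came from WT mouse 3, whose summed T cell markers were 66602 against 25755 to 40348 in the other Tsc2-experiment mice and 13253 to 21585 in the Fmr1 experiment. Plxnd1, an endothelial receptor of Sema3e, and Sema7a were also highest in blood of that mouse. Plxnd1 read 161 to 286 in Fmr1 blood, and 313, 1258 and 643 in Tsc2+/- and 220, 617 and 2533 in WT blood, and Sema7a read 229, 421 and 278 and 171, 242 and 820. Their differences between the experiments, -1.40 and -1.16 (adjusted p = 0.0116 and 0.00730), did not pass under each alternative. With the blood arrays of Tsc2+/- mouse 2 and WT mouse 3 left out, 14 of the 67 genes passed in place of 21. The differences became 1.16 for Plxna4, 1.01 for Sema6d, 0.44 for Ntn4, 0.64 for Efna5, -0.58 for Epha2 and -0.94 for Ephb6. Each passed the threshold, but passing this fit was itself a condition for being among the 6 genes. The part of platelets and T cells in these values was not tested.

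**Figure D3:**
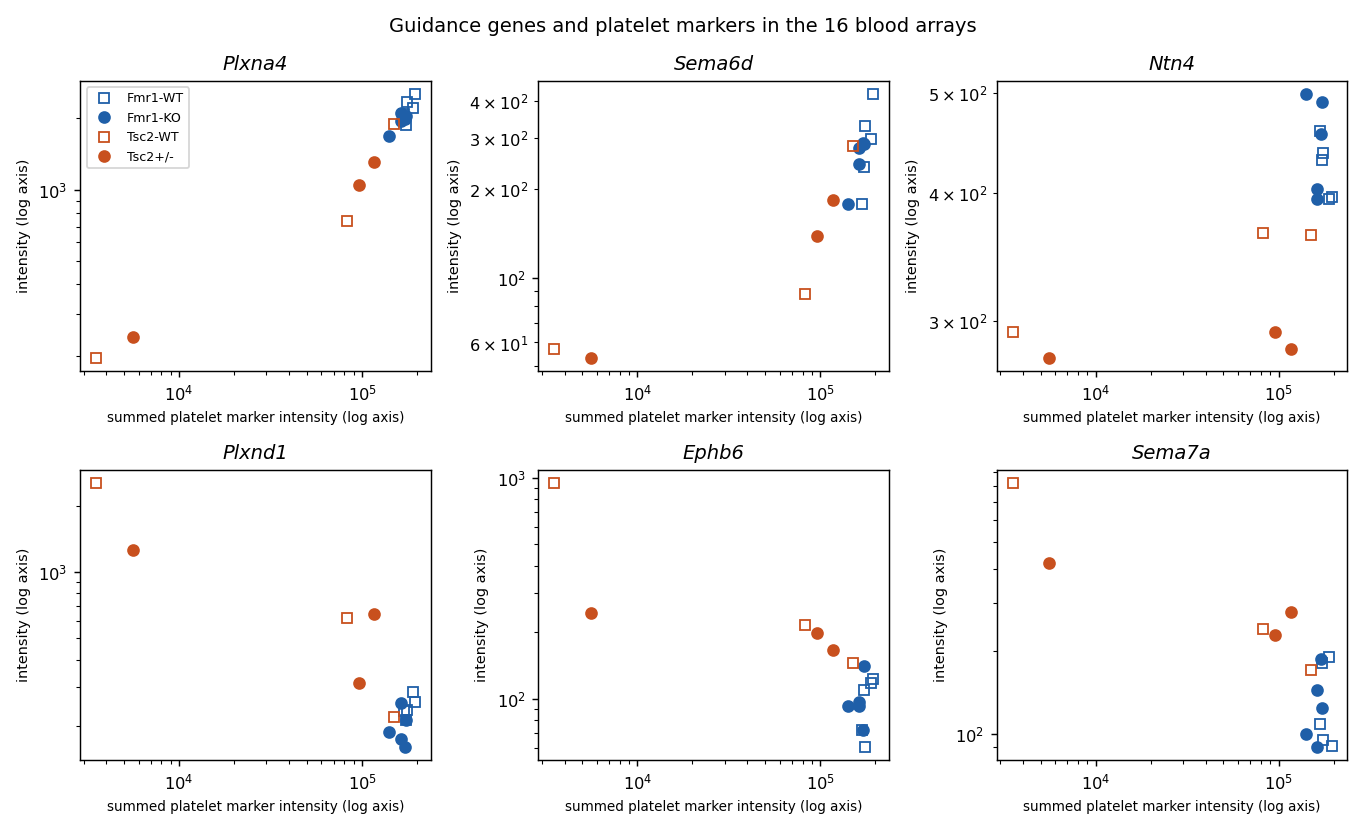
Blood intensity of Plxna4, Sema6d, Ntn4, Plxnd1, Ephb6 and Sema7a (vertical, log axis) against the summed intensity of 8 platelet genes on the same array (horizontal, log axis), 1 point per blood array (16 arrays; blue, Fmr1 experiment, orange, Tsc2 experiment, filled, mutant, open, WT). The 2 arrays with platelet sums of 5577 and 3517 hold the lowest values of Plxna4 and Sema6d and the highest of Plxnd1.

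Few guidance genes passed a test of genotype. Over both tissues, 1 of the 67 genes passed an unadjusted p of 0.01 in the Fmr1 experiment, where 0.304% of all probe sets did, and 0 did in the Tsc2 experiment, where 0.436% did (0 at an unadjusted p under 0.05 against 2.86%). The gene was Plxnd1, with a log2 difference of -0.29 (SE 0.08, limma adjusted p = 0.978). In Fmr1-KO cerebellum it read 222, 284, 266, 273 and 264, all below the 331, 338, 288, 315 and 292 of the WT mice (log2 difference -0.26, exact permutation p = 0.00794, limma adjusted p = 0.999). In blood it read 213, 175, 161, 253 and 189 in Fmr1-KO and 286, 213, 256, 235 and 233 in WT mice, with overlap (log2 difference -0.32, exact permutation p = 0.0476). No genotype difference of a guidance gene passed an adjusted p of 0.05, and the unadjusted limma p of Plxnd1 over both tissues ran from 0.000548 to 0.288 over the alternatives. Without the cerebellum array of Fmr1-KO mouse 1 its log2 difference was -0.26, still past 0.01.

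In Fmr1-KO blood 2 of the 67 genes passed an unadjusted p of 0.01, against 0.582% of all probe sets, and 0 had groups that did not overlap, against 0.562%. Ephrin-B3 (Efnb3) read 42.2, 83.8, 18.1, 33.1 and 23.0 in Fmr1-KO blood and 9.43, 5.40, 2.96, 9.01 and 18.2 in WT blood. The groups met at 18.1 and 18.2, and the log2 difference was 2.19 (SE 0.55, limma p = 0.00295, adjusted p = 0.955, exact permutation p = 0.0159). With 16 added it was 1.08. Plxna3, a receptor of class 3 semaphorins with Nrp2, read 35.4, 48.6, 29.7, 40.4 and 40.9 in Fmr1-KO and 85.5, 57.5, 104, 45.0 and 62.0 in WT blood, where 1 KO value exceeded 1 WT value (log2 difference -0.82, SE 0.24, limma p = 0.00723, adjusted p = 0.955, exact permutation p = 0.0159). Both genes were below the background on all 16 blood arrays, so these are differences among values that could not be told from those of the olfactory receptor probe sets. In cerebellum, where both were above background on the other arrays, their log2 differences were -0.10 and 0.04 (exact permutation p = 0.492 and 0.810).

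The difference of the genotype effect between cerebellum and blood passed an unadjusted p of 0.01 for the same 2 genes in the Fmr1 experiment (0.537% of all probe sets), at -2.29 (SE 0.58) for Efnb3 and 0.85 (SE 0.29) for Plxna3, with limma adjusted p = 0.993 for both. Without the cerebellum array of Fmr1-KO mouse 1 the values were -2.20 and 0.82, of which that of Plxna3 no longer passed. In the Tsc2 experiment it passed for 0 of the 67 genes against 0.596% (3 at an unadjusted p under 0.05 against 3.49%). In Fmr1-KO cerebellum 0 genes passed an unadjusted p of 0.01 against 0.197% of all probe sets, and 2 passed 0.05 against 1.66%. These were Plxnd1 and Epha8, which were also the 2 genes whose groups did not overlap (0.357% of all probe sets). Epha8, an EphA receptor tyrosine kinase, read 246, 300, 283, 273 and 263 in Fmr1-KO and 352, 304, 309, 315 and 324 in WT cerebellum (log2 difference -0.23, exact permutation p = 0.00794).

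**Figure D4:**
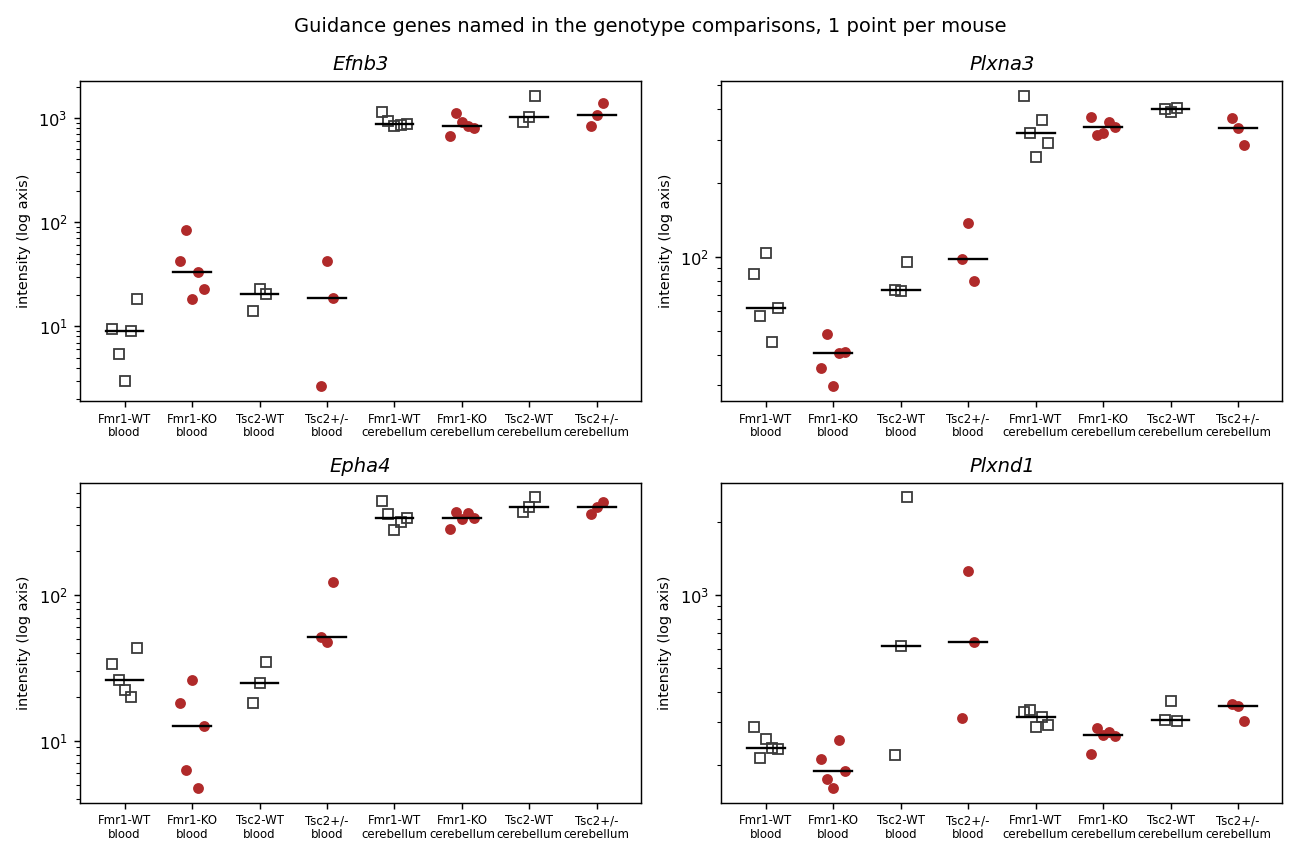
Intensity (log axis) of Efnb3, Plxna3, Epha4 and Plxnd1 in each mouse by experiment, genotype and tissue, with group medians as lines. Filled circles are Fmr1-KO or Tsc2+/- mice and open squares WT mice. Efnb3 in Fmr1 blood reads 2.96 to 83.8, all below background, against 674 to 1148 in cerebellum, where the genotypes overlap.

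In Tsc2+/- blood 0 genes passed an unadjusted p of 0.01 against 0.298% of all probe sets, and 1, Epha4, passed 0.05 against 2.14%. Epha4, a receptor of both ephrin classes, read 51.5, 47.7 and 123 in Tsc2+/- and 18.2, 24.9 and 34.6 in WT blood, with no overlap and below background on every blood array (log2 difference 1.42, SE 0.44, limma adjusted p = 1.00, exact permutation p = 0.1). Without the blood arrays of Tsc2+/- mouse 2 and WT mouse 3 the difference was 1.90. Robo3, a Robo receptor of commissural axons, read 78.6, 88.3 and 80.8 in Tsc2+/- and 58.7, 67.6 and 69.8 in WT blood, also below background (0.34, exact permutation p = 0.1). These were the 2 genes whose groups did not overlap, against 6.38% of all probe sets. In Tsc2+/- cerebellum 0 genes passed an unadjusted p of 0.01 against 1.12% and 0 passed 0.05 against 4.94%. There the groups did not overlap for 7 genes against 10.3% of all probe sets, with Efnb1 higher and Efnb2, Ntn3, Plxna2, Plxna3, Plxna4 and Sema4d lower. Plxna3 read 368, 337 and 285 in Tsc2+/- and 400, 389 and 403 in WT cerebellum (log2 difference -0.28). Efnb2, a transmembrane ligand known from arterial vessels, read 368, 322 and 337 against 369, 437 and 411 (-0.24), and Plxna4 read 1260, 1276 and 1136 against 1348, 1400 and 1378 (-0.17), each with an exact permutation p of 0.1. On the same cerebellum arrays the summed intensity of 12 immediate early genes was 4091 to 4371 in Tsc2+/- and 6200 to 6427 in WT mice, with no overlap, and that of 11 choroid plexus genes was 3075, 19615 and 22746 against 11064, 3309 and 21868. Their part in these values was not tested.

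The genotype effect differed between the models in blood for 2 of the 67 genes at an unadjusted p of 0.01, against 0.509% of all probe sets, and in cerebellum for 0 against 0.487% (0 at an unadjusted p under 0.05 against 2.23%). Epha4 read 18.2, 6.32, 26.3, 4.74 and 12.5 in Fmr1-KO blood and 33.4, 26.1, 22.2, 20 and 42.9 in WT blood (log2 difference -1.31, exact permutation p = 0.0397), the opposite sign to Tsc2+/- blood, and the difference between the models was 2.73 (SE 0.73, limma adjusted p = 1.00). Plxna3 read 98.0, 137 and 80.1 in Tsc2+/- and 73.2, 72.4 and 95.5 in WT blood (0.36), and its difference between the models was 1.18 (SE 0.37, limma adjusted p = 1.00). Without the blood arrays of Tsc2+/- mouse 2 and WT mouse 3 of that experiment the values were 3.21 and 1.10, of which that of Plxna3 no longer passed. The plexins and neuropilins as a family shared a sign in Fmr1-KO blood. All 11 had log2 differences below 0 (median -0.30), where 62.8% of all probe sets were below 0 (median -0.07), and 10 of 11 did after quantile normalization or median centring. Of them Plxna2, Plxna3, Plxnb1 and Plxnb3 were below background on every blood array. In the same blood the summed NK cell markers were 8842 to 15040 in Fmr1-KO and 11611 to 17953 in WT mice, and the summed T cell markers 13253 to 18619 and 17816 to 21585. Their part in the shared sign was not tested. In Fmr1-KO cerebellum 8 of the 11 plexins and neuropilins were below 0 (median -0.06), against 46.2% of all probe sets (median 0.02). In Tsc2+/- blood 3 of 11 were (median 0.29), against 42.9% of all probe sets (median 0.04). Plxna3 alone, in Fmr1-KO blood, passed an unadjusted p of 0.01 within a tissue among these 11 genes, so the shared sign is a description.

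**Figure D5:**
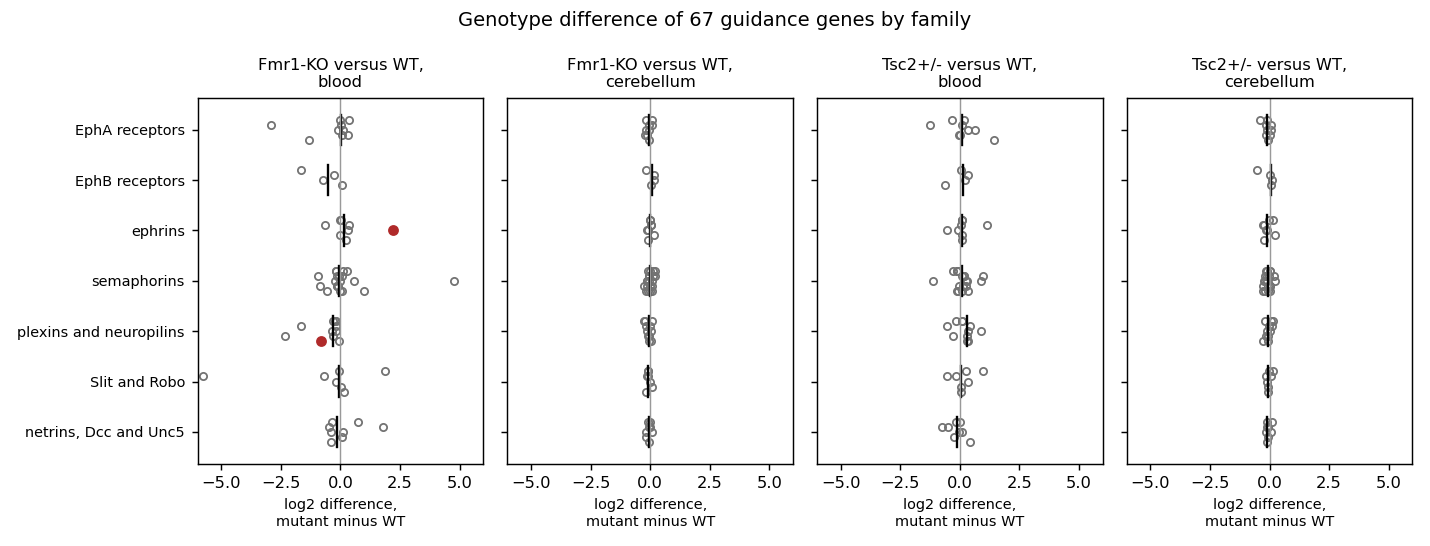
Log2 difference of each of the 67 guidance genes between mutant and WT mice in the 4 comparisons of genotype within a tissue, by family. Each point is 1 gene, bars are family medians, and the marked genes passed an unadjusted p of 0.01. The 2 marked genes are Efnb3 and Plxna3 in Fmr1-KO blood, and the medians of the 11 plexins and neuropilins are -0.30 in Fmr1-KO blood and 0.29 in Tsc2+/- blood.

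The 2 sets of WT mice, which differ in strain, differed at an unadjusted p of 0.01 for 4 of the 67 genes, all higher in the Tsc2-experiment mice, against 7.89% of all probe sets (0 of the 67 at an adjusted p under 0.05 against 0.0478%). These comparisons share their WT mice with the genotype comparisons. Without the blood arrays of Tsc2+/- mouse 2 and WT mouse 3 of the Tsc2-experiment mice, Sema5a (0.56) and Sema3e (0.32) no longer passed, while Unc5a (0.48) and Sema4d (0.34) still did. Sema4d read 1642, 1581 and 1837 in Tsc2-experiment WT blood and 1172, 1146, 1051, 1097 and 1041 in Fmr1-experiment WT blood, with no overlap (over both tissues 0.39, SE 0.10, limma adjusted p = 0.110). Unc5a, a repulsive netrin receptor, read 192, 135 and 132 against 106, 118, 88.0, 84.7 and 86.1 in blood (over both tissues 0.47, SE 0.13, adjusted p = 0.110). It exceeded the background on 3 of the 16 blood arrays. Sema5a, an integral membrane semaphorin with thrombospondin repeats, read 91.4, 113 and 103 against 88.5, 37.0, 52.0, 56.9 and 56.2 in blood, all below background, and 489, 554 and 537 against 668, 409, 351, 391 and 340 in cerebellum (0.60, SE 0.19, adjusted p = 0.117). Sema3e, the ligand of Plxnd1, read 250, 308 and 402 against 221, 226, 234, 235 and 243 in cerebellum (0.36 over both tissues, SE 0.11, adjusted p = 0.111). In blood 8 of the 67 genes had groups that did not overlap against 24% of all probe sets, 7 higher and Ntn4 lower, and in cerebellum 8 did against 4.98%, all higher in the Tsc2-experiment WT mice. The summed choroid plexus genes of these cerebellum arrays were 11064, 3309 and 21868 against 21390 to 27377, and the summed oligodendrocyte genes 43750 to 64002 against 34325 to 52152. WT mouse 3, which had the highest Sema3e value of 402, also had the highest sums of oligodendrocyte genes (64002) and of brain stem and forebrain regional genes (25428). Their part in these values was not tested.

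The intracellular partners of these receptors were counted from lists. Of the Eph and ephrin effectors, such as adaptor and kinase genes, 35 of 36 were measured, and 23 were higher and 6 lower in cerebellum in Fmr1-experiment mice and 20 and 7 in Tsc2-experiment mice. For the semaphorin, plexin and neuropilin effectors, 44 of 46 were measured, with 30 higher and 11 lower and 28 and 10. For the Slit, Robo and netrin effectors and co-receptors, 41 of 44 were measured, with 28 higher and 10 lower and 24 and 10. Of all probe sets, 51.8% were higher and 20% lower in Fmr1-experiment mice and 31% and 26.4% in Tsc2-experiment mice. In the 6 genotype comparisons 0 genes of these lists passed an unadjusted p of 0.01. Between the WT mice 5, 7 and 3 genes of the lists did, against 7.89% of all probe sets, and Rras2, a Ras-family GTPase, was the single gene of them that passed an adjusted p of 0.05 (limma adjusted p = 0.0213).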

How the data were processed

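Blood and cerebellum RNA of 16 mice was measured on 32 arrays, 250 ng per array. Per the methods, the authors normalized all arrays together by quantiles at the probe level and summarized probe sets with PLIER (Affymetrix Power Tools per the labels). The deposited values are linear intensities, 1 table for the series, and no genome build is given in the sources used here. Probe sets were named through the platform annotation: 21789 of 35556 carry 1 symbol, 1621 several and 12146 none. For the 5 guidance genes with several probe sets, the one with the highest mean was used.

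The deposited intensities were taken to log2 here without an offset, and limma 3.58.1 (R 4.3.3, lmFit and eBayes) was fitted to all 35556 probe sets, following the linear model of the study: tissue and genotype within each experiment, genotype within each tissue, WT mice against WT mice with tissue as a term, and interactions. Tissue calls used a Benjamini-Hochberg adjusted p under 0.05 and genotype, WT and interaction calls an unadjusted p under 0.01, the threshold of the study. Single genes within a tissue were tested with an exact two-sided permutation test of the mean log2 difference. The number of arrays limits the precision. The fits were tested on simulated data.

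The genes, families, effector lists and marker lists were chosen with earlier results of these data known. Genes named for tissue were, in each family, the 3 with the largest and the 3 with the most negative log2 difference among those past the threshold with 1 sign in both experiments. Genes named for genotype, WT or interaction were those at an unadjusted p under 0.01, with the 3 largest non-overlapping differences per tissue. Sema7a, Dcc, Epha10, Sema4c, Sema4f, Sema4g, the exceptions within families and the genes of the comparison of tissue differences between experiments were chosen after their values were seen. That comparison, like the leaving out of single arrays, was chosen after seeing the data. Between mutant and WT mice of the same replicate number, correlations of deviations from the group means ran from -0.0897 to 0.228. Between blood and cerebellum of the same mouse they ran from -0.0696 to 0.0785. Such correlations are low even for known pairs, so they cannot show whether replicate numbers pair mutant with WT mice. Blood and cerebellum of the same number come from the same mouse. Promoters were taken from RefSeq by symbol, and 57 of the 67 genes matched.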

Additional observations from a re-analysis of the deposited data

Results flagged for a closer look

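In the 5-mouse groups of the Fmr1 experiment, 188 groups of values of 47 guidance genes were searched for a sample set apart from the others of its group, and 16 were found. Chance flags about 5% of groups. Of these, 5 came from the cerebellum of WT mouse 1: Efna2 473 (others 220.1 to 272.6), Efna3 782 (328.5 to 450.5), Nrp1 213 (113.1 to 138.2), Plxnb3 441 (315.7 to 349.8) and Sema5a 668 (340.4 to 409). A further 5 came from the cerebellum of Fmr1-KO mouse 1, the array with the high background: Efna2 437 (262.7 to 275.8), Nrp1 208 (120.5 to 139.6), Robo2 252 (359.9 to 399.7), Robo3 155 (71.41 to 94.33) and Slit3 466 (303.4 to 340.4). On the cerebellum arrays of Fmr1-KO mouse 1 and WT mouse 1 the summed intensity of 12 immediate early genes was 10607 and 10188. It was 4173 to 6700 on the other cerebellum arrays of the Fmr1 experiment, and its part in these values was not tested. In blood, the values apart were Epha6 5.03 in Fmr1-KO mouse 2 (0.00142 to 1.432), Plxna2 22.9 in WT mouse 2 (65.95 to 73.79), Plxnb1 181 in Fmr1-KO mouse 1 (0.2774 to 36.48), Plxnb2 422 in Fmr1-KO mouse 4 (225.8 to 248.8) and 371 in WT mouse 2 (278.9 to 298.9), and Plxnc1 380 in WT mouse 5 (544.9 to 607.2). The groups of 3 mice were not searched.

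The genotype effect differed between groups at an unadjusted p under 0.01 in 4 cases, on the log2 scale: between cerebellum and blood of the Fmr1 experiment by -2.29 for Efnb3 and 0.85 for Plxna3, and between the models in blood by 2.73 for Epha4 and 1.18 for Plxna3. Of all probe sets, 0.537% passed between the tissues of the Fmr1 experiment and 0.509% between the models in blood. The tissue difference differed between the experiments (limma adjusted p under 0.05) for 21 of the 67 genes, near the share of 33.5% over all probe sets. It was higher in the Tsc2 experiment for Efna5 (0.79), Ntn4 (0.51), Plxna4 (1.97), Sema6d (1.52) and Slit1 (0.59). It was lower there for the receptors Epha2 (-0.77), Ephb4 (-0.94), Ephb6 (-1.41), Unc5a (-0.81), Nrp1 (-1.03), Plxna3 (-0.71), Plxnb2 (-0.73) and Plxnd1 (-1.40), and for the ligands Efnb1 (-0.45), Efnb2 (-1.71), Ntn1 (-1.33), Sema3b (-0.51), Sema3f (-0.46), Sema4d (-0.57), Sema5a (-1.05) and Sema7a (-1.16). The counts with re-scaled arrays are given with the alternatives.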

How the results depend on the processing

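Of the counts of guidance genes past a threshold, 226 of those recomputed under an alternative were within 1.5 times the count given and 48 were not. For single named genes, 1672 values kept their direction and side of the threshold, 143 lost the call, 4 gained it and 2 reversed. The 2 were Sema4d between tissues, at 0.39 and 0.15 with its probe sets averaged, whose second probe set differs in direction. The tissue counts (64 and 59) held under each alternative, with 63 to 64 and 56 to 59 when mice were left out in turn. For Fmr1-KO over both tissues the count of 1 became 2 after quantile normalization, without moderation, with a trended prior or without the cerebellum array of Fmr1-KO mouse 1, and 3 with all 32 arrays in 1 fit. For Fmr1-KO blood the count of 2 became 1 without moderation or with a trended prior, 0 with a filter at a mean log2 intensity of at least 6, 10 with all 32 arrays in 1 fit, and 1 to 3 when mice were left out. For Fmr1-KO cerebellum 0 became 2 without moderation and 0 to 1 when mice were left out. In the Tsc2 experiment 0 became 1 without moderation over both tissues and in cerebellum, and 2 in blood with all 32 arrays in 1 fit. For WT against WT, 4 became 1 after quantile normalization and 2 to 4 when mice were left out. For genotype by tissue, the Fmr1 count of 2 became 1 with 16 added or without the cerebellum array of Fmr1-KO mouse 1 and 1 to 3 when mice were left out, and the Tsc2 count of 0 became 1 with the filter or without the blood arrays of Tsc2+/- mouse 2 and WT mouse 3, and 0 to 1 when mice were left out. For genotype by model in blood, 2 became 1 after quantile normalization, with a trended prior or without those 2 blood arrays, 0 with the filter, 5 with all 32 arrays and 1 to 3 when mice were left out. For the tissue difference between experiments, 21 became 13 after quantile normalization, 8 after median centring and 13 to 22 when mice were left out. Apart from the probe sets and the fewer genes or samples that a filter or a left-out array implies, the cause was not tested. Whether replicate numbers pair the mice of different genotypes could not be decided. With the replicate block, the counts became 1 for Fmr1-KO blood, 1 for Tsc2+/- blood, 1 for Tsc2+/- cerebellum and 1 for genotype by model in blood, and the mouse as a random block moved no tissue count by over 1.5 times. Signal over background limits the blood side of 38 genes.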
